A study of Mus musculus with 32 samples.

Results

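Normal maturation of the mouse spinal cord was described here from the non-transgenic control libraries at 2 ages, 6 at 1.5 months and 5 at 6 months, which are 11 of the 32 libraries of a study of CHMP2Bintron5 transgenic mice. Members were taken by their labels, the 1.5 month and 6 month non-transgenic controls. Each library was poly(A)-selected, strand-marked RNA-seq of whole spinal cord from mice of a mixed FVB/N, C57BL/6 and DBA/2 background, and the controls carried no transgene copy. CHMP2Bintron5 mice of 1.5 months (5 libraries) and 6 months (4 libraries) carry 12 copies of a transgene for a truncated form of an ESCRT-III subunit. Their libraries and 6 control libraries of 10-12 months serve below to place the control age difference. All 32 libraries, with CHMP2Bintron5 libraries of 10-12 months among them, also shared 1 model and so set the spread behind each p-value. The labels do not say whether replicates were separate animals, nor in which batch each age was extracted or sequenced. P-values therefore measure the spread between these libraries, and age cannot be told apart from any batch that went with it.

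Between weaning age and adulthood the rodent cord is completing its myelin. Oligodendrocytes wrap axons with membrane made of cholesterol, galactolipids and a few abundant proteins, and most of that lipid is made locally because the blood-brain barrier keeps out plasma cholesterol. Growth of the cord and its coverings slows over the same period, and glia and neurons take on their adult state.

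Total counts ranged from 28368376 to 85348326 per library at 1.5 months and from 35391875 to 71004216 at 6 months, and the mitochondrial share was 4.43% ± 0.298 (SD, n = 5) at 6 months and 4.52% ± 0.606 (SD, n = 6) at 1.5 months (two-sided exact permutation test, p = 0.777). Levels are given as CPM, the usual scaling of counts to a common library size, here with library sizes adjusted by the trimmed mean of M-values, with each library in replicate order at 6 months and the lowest, median and highest library at 1.5 months. A gene was called when its adjusted p (edgeR quasi-likelihood test with Benjamini-Hochberg adjustment over 20015 genes) was under 0.05. Mbp of oligodendrocytes, Gfap of astrocytes and Chat of motor neurons were found in all 11 libraries (lowest levels 7816, 770 and 13.9 CPM), as the spinal cord label requires. Xist lay between 860 and 1385 CPM and Ddx3y, a Y-linked gene, at or below 0.0579 CPM in all 11. At 6 months replicate 4 had 6979 CPM of Lars2, against 109 to 213 in the other 4. The summed level of 14 skeletal muscle genes ran from 142 to 676 CPM at 6 months and from 98.8 to 403 at 1.5 months. The highest values of Acta1, skeletal muscle actin, were 63.0 and 61.6 CPM in 6 month replicates 4 and 5. At 1.5 months replicate 2 had 42.8 CPM of Acta1 and the sum of 403 CPM. Counts that matter are therefore also given without 6 month replicates 4 and 5, with that 1.5 month library kept.

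At 6 months 984 genes were called higher and 1074 lower, which is 4.92% and 5.37% of the genes tested and 10.3% together. Counts of calls in the lists below are to be read beside these shares. Groups did not overlap for 6.48% of all genes tested, 2.51% higher and 3.96% lower. The median log2 fold change over all genes was 0.01. Of the called genes 179 were at least 2-fold higher and 61 at least 2-fold lower, and for 1037 the 2 groups did not overlap. Without 6 month replicates 4 and 5 the calls were 1223 higher and 989 lower (6.05% and 4.89%). The count fell to 1355, 1322 and 1154 when 6 month replicate 1, 2 or 3 was left out, and to 1147 without 1.5 month replicate 3. The age difference followed the base composition of genes. The median log2 fold change ran from -0.12 in the decile of genes with the lowest exonic GC content to 0.36 in the decile with the highest, and Spearman's rho across 19914 genes, which are not independent replicates, was 0.426. The slope of expression on GC content was 0.111 ± 0.168 (SD, n = 5) at 6 months and -0.0927 ± 0.21 (SD, n = 6) at 1.5 months (two-sided exact permutation test, p = 0.115). With GC content and length corrected, 1445 genes were called higher and 2163 lower (7.22% and 10.8%), and 79.1% of the higher and 87.4% of the lower calls stayed. A call that ended with this correction is named beside its gene, and the part of base composition in the others was not tested.

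**Figure D1:**
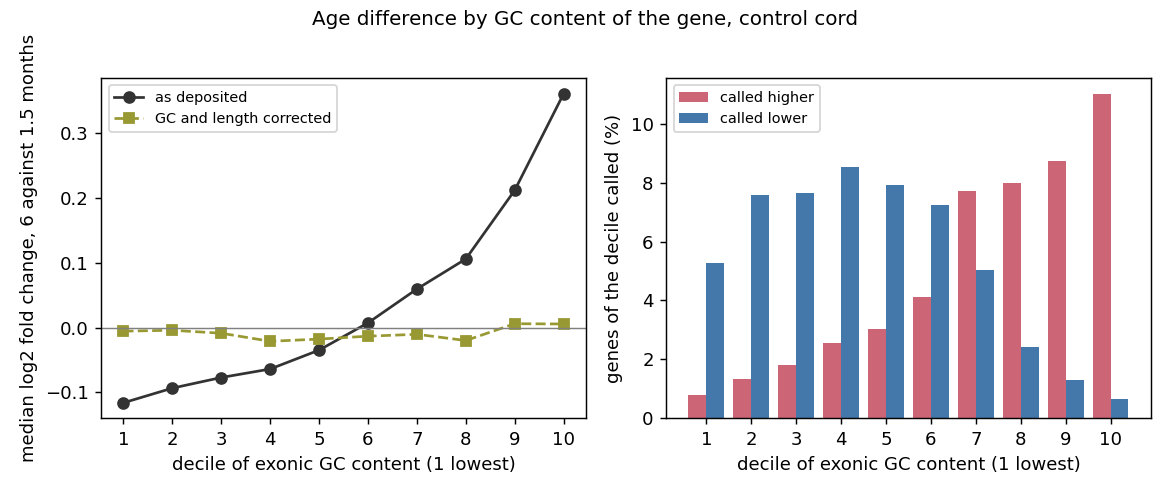
Left, median log2 fold change (6 against 1.5 months, control cord) in each decile of genes ordered by exonic GC content, from the counts as deposited and after correction for GC and length. Right, percentage of genes in each decile called higher or lower. Medians run from -0.12 to 0.36 before correction and lie near 0 after it, with higher calls mostly in the GC-rich deciles.

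Genes of the myelin sheath were lower at 6 months. Of 24 oligodendrocyte and myelin genes tested, 9 fell and 0 rose, with a list median of -0.26 (log2). With the GC and length correction 14 fell, and without 6 month replicates 4 and 5 the counts were 7 lower and 1 higher. Mal, a raft proteolipid of the compact sheath (chromosome 2, 127633226 to 127656695, GRCm38), lay at 1059, 1202 and 1605 CPM (lowest, median, highest) at 1.5 months and at 574, 419, 553, 553 and 582 CPM at 6 months, a 2.33-fold fall (log2 fold change -1.22, SE 0.11, edgeR adjusted p = 6.12e-08). The groups stood well apart. Mog, a surface protein of the outer myelin lamella, fell 2.11-fold, from 475 ± 33.0 CPM (SD, n = 6) to 225 ± 18.5 (SD, n = 5; edgeR adjusted p = 1.59e-07). Tspan2, a tetraspanin of myelinating cells, fell 1.96-fold (edgeR adjusted p = 8.56e-07), and Cldn11, which forms the tight junctions of the sheath, fell 1.76-fold (edgeR adjusted p = 1.45e-05). Not every myelin gene was lower. Mbp, myelin basic protein, had 11183 ± 2382 CPM (SD, n = 6) at 1.5 months and 10289 ± 1242 (SD, n = 5) at 6 months, with overlapping libraries (edgeR adjusted p = 0.647). Mag, an adhesion protein of the sheath's inner face, had a log2 fold change of -0.03 (edgeR adjusted p = 0.913), which became a call with the GC and length correction (adjusted p = 0.00902). Sox10, the lineage's transcription factor, had 65.6 ± 14.9 CPM (SD, n = 6) and 89.7 ± 20.7 (SD, n = 5; edgeR adjusted p = 0.148).

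Genes of oligodendrocytes that have just left the precursor state were lower too: 3 of 10 fell and 0 rose. Gpr17, a receptor of premyelinating cells, ranged from 62.1 to 98.4 CPM (median 75.9) at 1.5 months and was 33.0, 36.8, 30.2, 29.2 and 42.3 CPM at 6 months, a 2.22-fold fall (edgeR adjusted p = 0.000154). No library overlapped. Rras2, a small GTPase, fell 1.67-fold (edgeR adjusted p = 0.000743). Bcas1, which marks actively myelinating cells, was 467 ± 54.0 CPM (SD, n = 6) and 427 ± 56.5 (SD, n = 5; edgeR adjusted p = 0.452). Of 12 precursor genes 1 rose and 1 fell. The one that fell was Vcan, a chondroitin sulphate proteoglycan (edgeR adjusted p = 0.0172), and that call ended without 6 month replicate 3 (adjusted p = 0.0516). Pdgfra, the receptor that defines precursors, had 48.1 ± 7.57 CPM (SD, n = 6) and 46.7 ± 7.03 (SD, n = 5; edgeR adjusted p = 0.85), and Olig2, a lineage factor, was not called either (edgeR adjusted p = 0.613). In whole tissue, fewer cells of a type and less RNA per cell cannot be told apart.

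The cholesterol pathway held the most calls of any list in the plot of list medians and calls. Of 25 genes 15 fell and 0 rose, with a median log2 fold change of -0.35, and 14 fell without 6 month replicates 4 and 5. The 4 called members with the largest falls among those in the RefSeq promoter table (GRCm38.p6) were Idi1, Hmgcs1, Cyp51 and Nsdhl. Their 250 bases before the transcription start are shown because these genes moved together, as possible places for the factors known to act on the pathway. Capitals mark CCAAT or its reverse complement ATTGG, the letters of the NF-Y box, and TCACCCCAC, a match to the sterol regulatory element core TCACNCCAC. The regions, in order, are chr13:8885356-8885605 (plus strand), chr13:119690101-119690350 (plus strand), chr5:4104698-4104947 (minus strand) and chrX:72918271-72918520 (plus strand).
Idi1: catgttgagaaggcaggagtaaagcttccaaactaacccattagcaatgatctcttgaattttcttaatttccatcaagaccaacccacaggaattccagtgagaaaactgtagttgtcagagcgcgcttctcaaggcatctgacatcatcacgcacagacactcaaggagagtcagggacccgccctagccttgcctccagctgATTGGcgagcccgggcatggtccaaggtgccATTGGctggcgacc
Hmgcs1: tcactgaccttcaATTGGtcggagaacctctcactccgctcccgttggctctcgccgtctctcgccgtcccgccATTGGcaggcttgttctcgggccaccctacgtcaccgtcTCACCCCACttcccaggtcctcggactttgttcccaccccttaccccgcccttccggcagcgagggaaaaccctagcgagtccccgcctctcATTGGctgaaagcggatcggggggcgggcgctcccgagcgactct
Cyp51: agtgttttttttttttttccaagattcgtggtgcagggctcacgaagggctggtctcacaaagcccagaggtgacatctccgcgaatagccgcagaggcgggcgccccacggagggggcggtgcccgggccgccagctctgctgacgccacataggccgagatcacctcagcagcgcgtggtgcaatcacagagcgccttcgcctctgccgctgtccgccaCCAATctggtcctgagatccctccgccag
Nsdhl: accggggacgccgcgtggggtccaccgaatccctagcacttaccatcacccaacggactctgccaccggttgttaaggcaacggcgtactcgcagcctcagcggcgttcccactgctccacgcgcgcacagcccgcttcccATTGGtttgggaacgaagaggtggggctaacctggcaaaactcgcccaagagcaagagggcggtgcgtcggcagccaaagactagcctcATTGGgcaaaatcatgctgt

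All 4 hold the CCAAT letters, 3 times in Hmgcs1, and an exact match to TCACNCCAC is found in Hmgcs1 alone, at position -137. Sterol elements with other letters were not searched, so a promoter without a match may still hold one. Both strands were searched over the full 300 bases of the table, and the motifs do not overlap in these windows. Of the 25 cholesterol genes 17 matched the table. CCAAT was found in 16 of the 17 (94.1%), against 41.1% of all 27025 genes of the table. It was in 9 of the 10 that fell and in 7 of the 7 that were not called, so it did not separate them. TCACNCCAC was found in 1 of the 17 and in 1.44% of all genes. The search for CCAAT in this list was added after the data were seen, and a match is only a description of letters.

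Hmgcs1, which makes HMG-CoA, was at 718, 785 and 900 CPM (lowest, median, highest) at 1.5 months and at 341, 314, 470, 439 and 513 CPM at 6 months, a 1.91-fold fall (log2 fold change -0.93, SE 0.12, edgeR adjusted p = 9.01e-06). Every older library lay below every younger one. Idi1, which isomerises isopentenyl diphosphate, fell 1.96-fold (edgeR adjusted p = 4.42e-05), with 89.1, 87.6, 125, 119 and 133 CPM at 6 months against 182 to 280. Further along, Sqle, squalene epoxidase, fell 1.56-fold (edgeR adjusted p = 3.76e-05). Cyp51, the lanosterol demethylase, was 206, 220 and 268 CPM (lowest, median, highest) and then 111, 115, 132, 137 and 157 CPM, a 1.74-fold fall (edgeR adjusted p = 1.71e-06). Msmo1 and Nsdhl, which act after it in removing methyl groups from the sterol, fell 1.64-fold and 1.74-fold (edgeR adjusted p = 3.76e-05 and 9.01e-06). Srebf2, the transcription factor that drives the pathway, was 153 ± 24.6 CPM (SD, n = 6) and 182 ± 16.5 (SD, n = 5; edgeR adjusted p = 0.199).

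Enzymes for the other myelin lipids were lower as well. Of 18 sphingolipid and galactolipid genes 8 fell and 0 rose. Ugt8a, which adds galactose to ceramide, was at 494, 608 and 787 CPM (lowest, median, highest) at 1.5 months and 230, 173, 248, 273 and 341 CPM at 6 months, a 2.46-fold fall (edgeR adjusted p = 4.42e-05). Fa2h, which hydroxylates the fatty acids of galactolipids, fell 1.78-fold, from 255 ± 30.0 CPM (SD, n = 6) to 143 ± 11.5 (SD, n = 5; edgeR adjusted p = 3.04e-07). Cers2, the ceramide synthase for very long chains, fell 1.55-fold (edgeR adjusted p = 1.33e-05). Both groups of libraries stood apart for all 3 genes. Among 15 fatty acid synthesis genes 5 fell and 1 rose. Acss2, which makes acetyl-CoA, fell 1.55-fold (edgeR adjusted p = 6.12e-08) and Elovl6, a chain elongase, fell 1.56-fold (edgeR adjusted p = 0.00127). The one that rose was Srebf1, the transcription factor of fatty acid synthesis: it was at 24.3, 38.3 and 52.6 CPM at 1.5 months and at 99.9, 102, 79.2, 75.1 and 57.7 CPM at 6 months (2.1-fold, edgeR adjusted p = 0.00442). It thus moved opposite to the enzymes named. In cholesterol efflux and transport 3 of 14 rose and 1 fell. Abcg1, a sterol exporter, rose 1.33-fold (edgeR adjusted p = 0.00843), and Npc2, which carries cholesterol out of lysosomes, fell 1.33-fold (edgeR adjusted p = 0.000521). Apoe, the main lipoprotein of brain and cord, rose 1.71-fold, from 568 ± 153 CPM (SD, n = 6) to 971 ± 161 (SD, n = 5; edgeR adjusted p = 0.0215), and this call ended (highest adjusted p 0.0731) without 6 month replicate 2 or 1.5 month replicate 3 or 4.

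**Figure D2:**
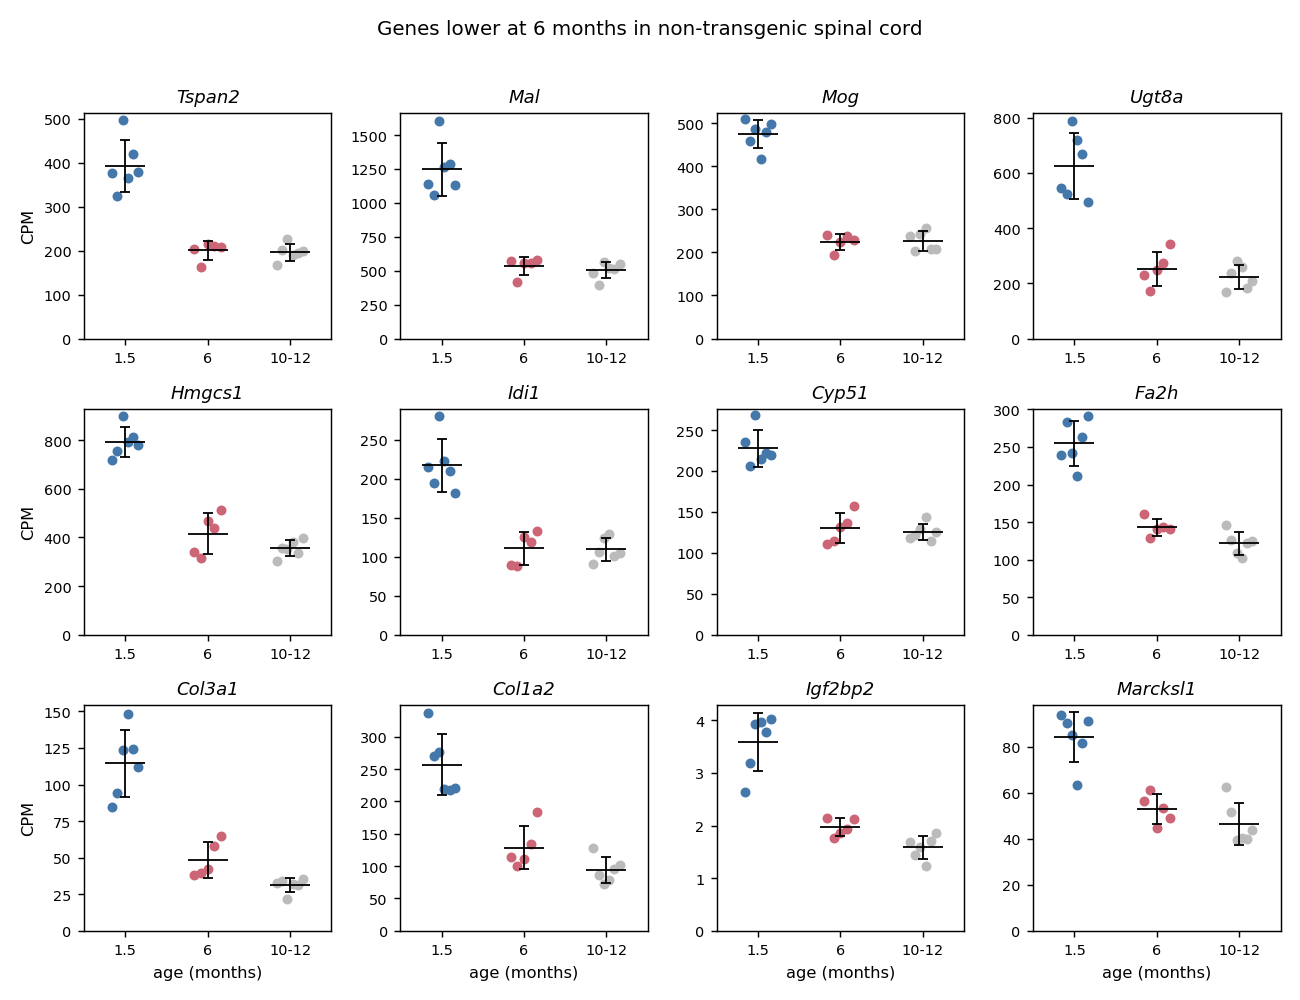
CPM of 12 genes in each control library (points) at 1.5, 6 and 10-12 months, with the mean (bar) and SD (whiskers). Rows hold myelin and lipid genes, then cholesterol and galactolipid genes, then collagens, Igf2bp2 and Marcksl1. In each of these genes the 6 month points lie below the 1.5 month points.

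Among 31 collagen and fibrillar matrix genes 9 fell and 0 rose at 6 months (median -0.21), and 11 fell and 1 rose without 6 month replicates 4 and 5. Of 18 meninges and fibroblast genes 3 fell and 1 rose (median 0.06). Their summed level ran from 1380 to 1528 CPM (median 1437) at 1.5 months and from 947 to 1613 CPM (median 1058) at 6 months, and its part in the collagen calls was not tested. Col3a1, type III collagen (chromosome 1, 45311538 to 45349706), was at 84.3, 118 and 148 CPM (lowest, median, highest) at 1.5 months and 37.9, 39.3, 42.0, 57.8 and 65.1 CPM at 6 months, a 2.36-fold fall (edgeR adjusted p = 0.00104). Replicates 4 and 5 were the highest of the older libraries and still lay below the younger ones. Col1a2, type I collagen, fell 2.0-fold to 113, 99.8, 110, 133 and 184 CPM from 218 to 336 (edgeR adjusted p = 0.00117). Col1a1, its partner chain, fell 2.26-fold, with 6 month replicate 5 inside the younger range (edgeR adjusted p = 0.0169). Eln, elastin, fell 2.06-fold (edgeR adjusted p = 0.000897), and Mfap4, a microfibril protein and the gene with the lowest log2 fold change of the named genes, fell 2.58-fold, from 10.1 ± 2.77 CPM (SD, n = 6) to 3.9 ± 0.949 (SD, n = 5; edgeR adjusted p = 0.0023).

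Basement membrane genes went both ways, with 3 of 17 lower and 2 higher. Nid1, nidogen, fell 1.76-fold (edgeR adjusted p = 0.00417) and Col4a5, a type IV collagen chain, 1.41-fold (edgeR adjusted p = 0.000832). In the perineuronal net list 3 of 12 fell and 0 rose, among them Ncan, neurocan (1.38-fold, edgeR adjusted p = 0.00144). Of 12 Schwann cell genes, which come with nerve roots left on the cord, 2 fell and 0 rose, and 1 fell with the replicate block. Pmp22, a protein of compact peripheral myelin, fell from 1803, 1857 and 3073 CPM (lowest, median, highest) to 1150, 844, 953, 1305 and 1635 (1.77-fold, edgeR adjusted p = 0.0056). The summed level of the 12 Schwann cell genes ran from 4539 to 7906 CPM at 1.5 months and from 2708 to 4709 CPM at 6 months. Its part in the fall of genes that roots also express was not tested.

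Some genes of growth were called lower. Of 35 cell cycle genes 5 fell and 0 rose, with a median of -0.29, beside 5.37% of all genes lower. Their summed level ran from 134 to 198 CPM (median 143) at 1.5 months and from 136 to 155 CPM (median 148) at 6 months. Prc1, which organises the central spindle, was 3.3 ± 0.428 CPM (SD, n = 6) and 1.98 ± 0.272 (SD, n = 5; edgeR adjusted p = 0.00705). Birc5, survivin, fell 1.55-fold (edgeR adjusted p = 0.0146, and 0.0526 in a fit of only these 11 libraries). Mki67, the usual proliferation marker, ranged from 3.87 to 16.7 CPM at 1.5 months and was 6.34, 1.98, 2.7, 6.76 and 6.6 CPM at 6 months, so its libraries overlapped (edgeR adjusted p = 0.242). The promoter letters TTTGAA, the CHR element of late cell cycle genes, were in 16 of 31 matched members against 20.2% of all promoters, and in 2 of the 4 matched members that fell. Of 14 embryonic chromatin and RNA-binding genes 5 fell and 1 rose. Without 6 month replicates 4 and 5 the counts were 5 lower and 3 higher, and with the replicate block 4 lower and 3 higher. Igf2bp2, an RNA-binding protein of fetal tissue, was at 2.63, 3.85 and 4.03 CPM (lowest, median, highest) and then 2.14, 1.75, 1.86, 1.93 and 2.13 CPM (1.82-fold lower, edgeR adjusted p = 0.000728). Ezh2, the histone H3 lysine methyltransferase of Polycomb, fell 1.44-fold (edgeR adjusted p = 0.00249). Hmga1, an architectural chromatin protein, went the other way, from 3.95 ± 1.32 CPM (SD, n = 6) to 9.27 ± 1.79 (SD, n = 5; 2.34-fold, edgeR adjusted p = 0.00683).

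Among 17 imprinted genes 4 fell and 1 rose. Rian, a maternally expressed long RNA, fell 1.34-fold (edgeR adjusted p = 0.00349) and lost the call with the GC and length correction (adjusted p = 0.0597). Igf1, a growth factor gene that is not imprinted, fell 2.1-fold, from 22.2 ± 7.09 CPM (SD, n = 6) to 10.5 ± 2.4 (SD, n = 5; edgeR adjusted p = 0.00493), with overlapping libraries. In the list of immature and growing neurons 2 of 24 fell and 2 rose. Sox11, a factor of young neurons, fell 1.36-fold (edgeR adjusted p = 0.00252), and Marcksl1, an actin regulator of growing processes, fell 1.59-fold (edgeR adjusted p = 0.00268). Nes, nestin, rose 1.52-fold (edgeR adjusted p = 0.0114), but the call ended without 6 month replicates 4 and 5 (adjusted p = 0.135). Dcx, doublecortin, had 28.3 ± 6.04 CPM (SD, n = 6) and 23.6 ± 3.65 (SD, n = 5; edgeR adjusted p = 0.242), and Gap43, of growth cones, had an edgeR adjusted p of 0.573.

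Among neuronal lists some had calls in both directions and some only higher ones. Of 24 genes of the axonal cytoskeleton and transport 5 rose and 2 fell. Kif5a, a kinesin of long-range axonal transport, was at 906, 1034 and 1169 CPM (lowest, median, highest) at 1.5 months and at 1362, 1346, 1375, 1339 and 1306 CPM at 6 months (1.31-fold, edgeR adjusted p = 0.000732). The older libraries formed a narrow band above the younger ones. Kif1a, which carries synaptic vesicle precursors, rose 1.2-fold (edgeR adjusted p = 0.0036) and lost the call with the GC and length correction (adjusted p = 0.141). Of 35 synaptic genes 4 rose and 2 fell, and 8 rose and 1 fell without 6 month replicates 4 and 5. Nlgn3, a postsynaptic adhesion protein, fell 1.3-fold (edgeR adjusted p = 0.00683). Syn1, synapsin, fell 1.24-fold (edgeR adjusted p = 0.0134), and lost the call without 6 month replicate 3 (adjusted p = 0.0599) or without replicates 4 and 5 (adjusted p = 0.0644). Of 25 genes of inhibitory signalling 4 were called higher and 0 lower. The list as a whole did not rise: its median was -0.03 and 16 of the 25 had a log2 fold change below 0. Groups did not overlap for 0 of them. Glra1, the adult glycine receptor subunit, was 52.2 ± 22.3 CPM (SD, n = 6) and 103 ± 26.5 (SD, n = 5; edgeR adjusted p = 0.0184), and without 6 month replicates 4 and 5 its adjusted p was 0.0693 and in a fit of only the 11 libraries 0.0527. Slc32a1, the vesicular carrier of GABA and glycine, rose 1.69-fold (edgeR adjusted p = 0.0164), and without 6 month replicate 2 its adjusted p was 0.0524. In axon guidance 2 of 31 rose and 0 fell (median -0.02), beside 4.92% of all genes higher, and 5 rose with the replicate block. Slit1 and Slit3, secreted repellents, were the 2 (1.6-fold and 1.49-fold, edgeR adjusted p = 0.00554 and 0.0159). Of 16 motor neuron genes 0 were called by edgeR, and Chat, which makes acetylcholine, had 18.9 ± 3.82 CPM (SD, n = 6) and 22.5 ± 2.92 (SD, n = 5; edgeR adjusted p = 0.205). Rbfox3, the gene of the neuronal antigen NeuN, had an edgeR adjusted p of 0.0567 and was called higher without 6 month replicates 4 and 5 (adjusted p = 0.0236).

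**Figure D3:**
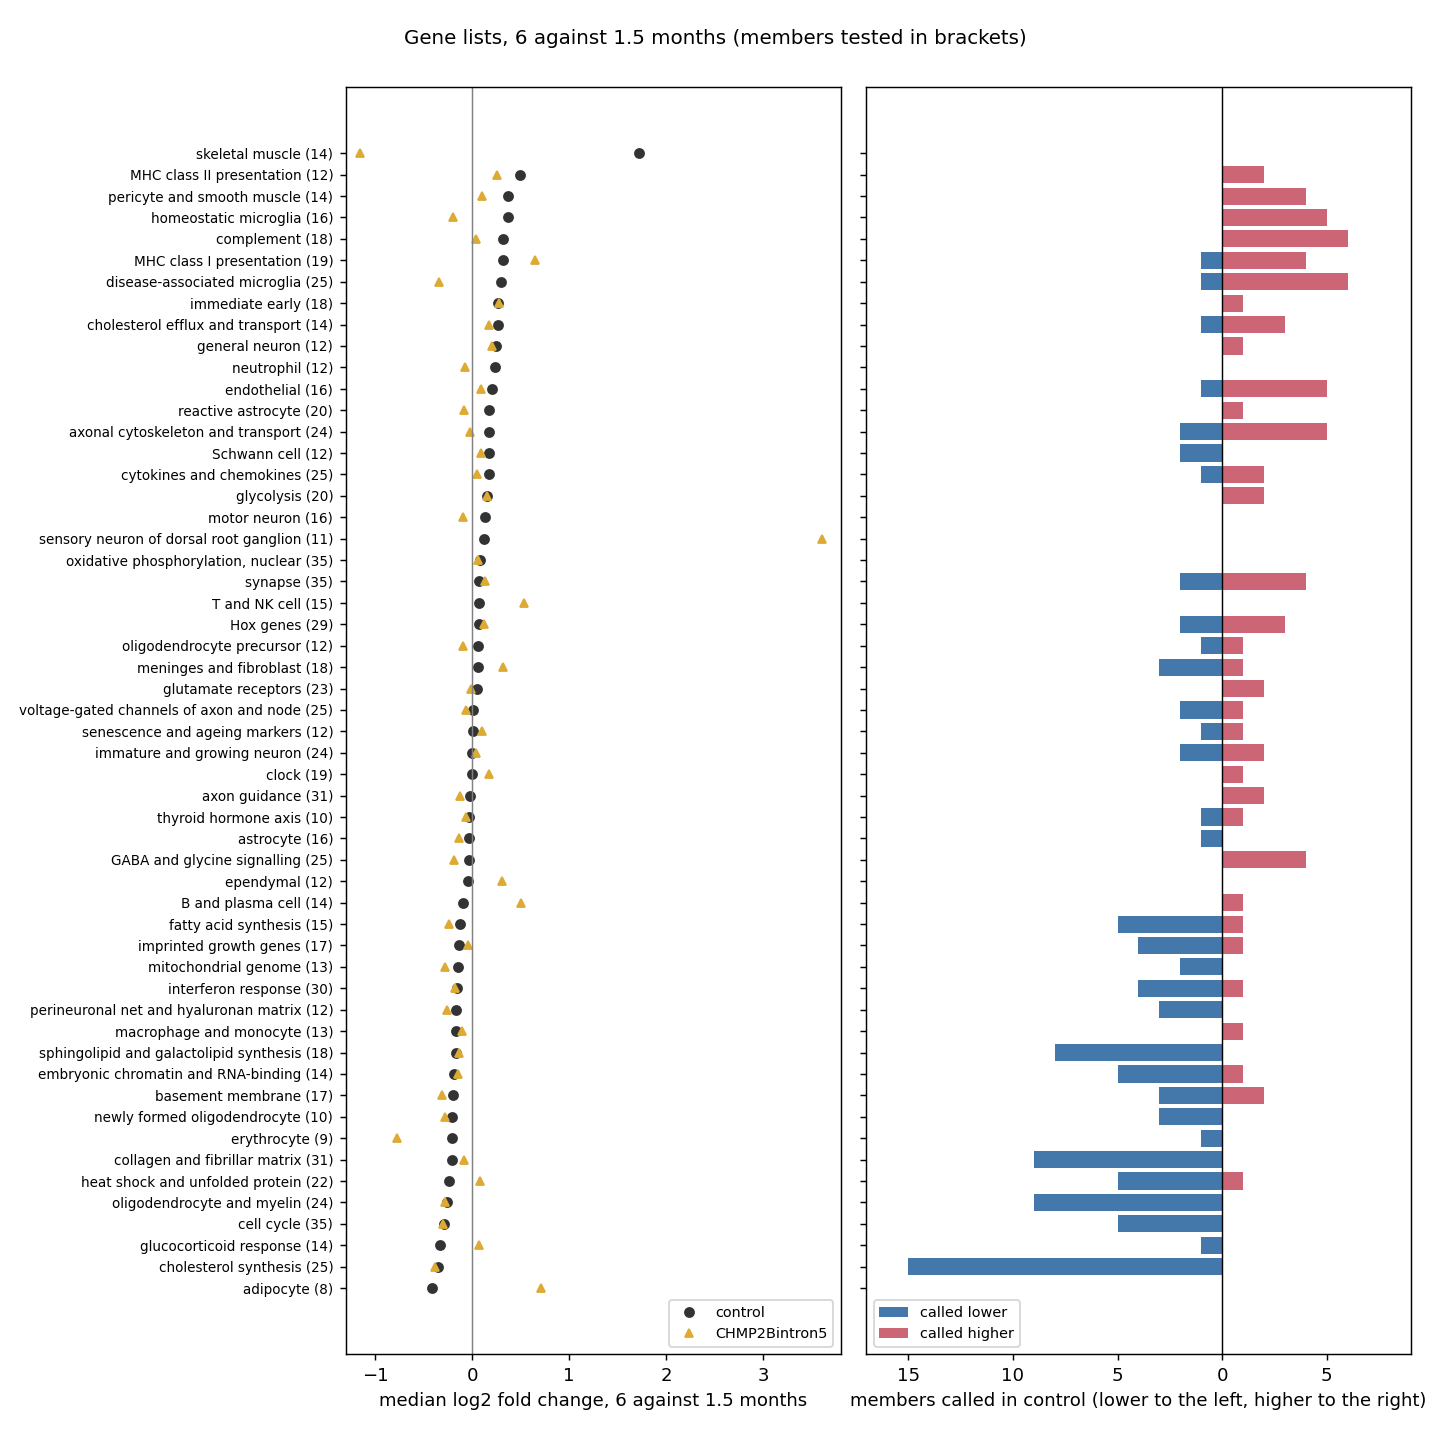
Left, median log2 fold change of each gene list (6 against 1.5 months) in control cord (circles) and CHMP2Bintron5 cord (triangles), with the number of members tested in brackets. Right, members called lower (left bars) and higher (right bars) in control cord. Cholesterol synthesis has the longest bar, with 15 of 25 members lower. The skeletal muscle median of 1.72 has no called member.

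Several microglial genes were higher at 6 months. Of 16 genes of homeostatic microglia 5 rose and 0 fell, and of 25 genes of the disease-associated state 6 rose and 1 fell. Without 6 month replicates 4 and 5 the counts were 3 and 0, and 4 and 1. Replicate 5 was the highest older library for Trem2, Cd68, Ccl4, Itgax and Clec7a. Trem2, a lipid-sensing receptor (chromosome 17, 48346401 to 48354147), was at 6.85, 7.84 and 10.3 CPM (lowest, median, highest) at 1.5 months and at 11.7, 11.8, 12.8, 11.9 and 19.8 CPM at 6 months (1.68-fold, edgeR adjusted p = 0.0035). Every older library exceeded every younger one. Csf1r, the survival receptor of microglia, rose 1.34-fold (edgeR adjusted p = 0.00404) and Cd68, a lysosomal protein, 1.62-fold (edgeR adjusted p = 0.00439). Lgals3, a galectin of phagocytes, rose from 2.37 ± 0.812 CPM (SD, n = 6) to 5.35 ± 1.04 (SD, n = 5; 2.23-fold, edgeR adjusted p = 0.000743). Ctss, a lysosomal protease, rose 1.52-fold (edgeR adjusted p = 0.0172), and the call ended without 6 month replicate 5 or 1.5 month replicate 3 (highest adjusted p 0.0627), and without 6 month replicates 4 and 5 (adjusted p = 0.203).

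Complement genes were higher in 6 of 18 cases and lower in 0, and without 6 month replicates 4 and 5 in 3 cases with 1 lower. C4b, complement component 4, was at 28.6, 39.5 and 46.9 CPM (lowest, median, highest) and then 62.2, 60.4, 73.1, 62.9 and 71.3 CPM (1.69-fold, edgeR adjusted p = 0.000772). C1qa, a chain of the initiating C1q complex, was 17.3 ± 5.29 CPM (SD, n = 6) and 33.5 ± 1.78 (SD, n = 5; edgeR adjusted p = 0.00812). No libraries overlapped for either gene. Of 19 genes of MHC class I presentation 4 rose and 1 fell, and with the replicate block 6 rose and 2 fell. Tap2, which pumps peptides into the endoplasmic reticulum, rose 2.14-fold (edgeR adjusted p = 0.00763) and H2-M3, a non-classical class I heavy chain, 1.38-fold (edgeR adjusted p = 0.00642). Interferon-response genes ran the other way, with 4 of 30 lower and 1 higher, among them Mx2, an antiviral GTPase (1.68-fold lower, edgeR adjusted p = 0.00517), and Irf9, which binds the interferon-stimulated response element (1.33-fold lower, edgeR adjusted p = 0.00722). Cytokines of the interleukin-1 family differed in direction. Il33, an alarmin of oligodendrocytes and astrocytes in the cord, was at 108, 112, 148, 140 and 157 CPM at 6 months against 60.9 to 84.6 (1.78-fold, edgeR adjusted p = 0.000564), and Il18 fell 1.53-fold (edgeR adjusted p = 0.00171).

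Vessel genes were called mostly in the higher direction. Of 16 endothelial genes 5 rose and 1 fell, and 0 of them were called without 6 month replicates 4 and 5. Abcb1a, the blood-brain barrier efflux pump, was at 29.9, 25.7, 43.9, 40.5 and 48.4 CPM at 6 months against 23.7 to 27.6 (edgeR adjusted p = 0.00532, and 0.0753 without these 2 libraries). Of 14 pericyte and smooth muscle genes 4 rose with and 4 without them, among them Tagln, transgelin (1.49-fold, edgeR adjusted p = 0.00954). Of 16 astrocyte genes 1 fell and 0 rose, beside 5.37% of all genes lower, with 2 lower and 1 higher with the replicate block. The one that fell was the connexin gene Gjb6 (1.28-fold, edgeR adjusted p = 0.00165), while Gfap was 1197 ± 123 CPM (SD, n = 6) and 1023 ± 197 (SD, n = 5; edgeR adjusted p = 0.135). Gfap, an astrocyte filament, was called lower with the GC and length correction (adjusted p = 0.0252), without 6 month replicates 4 and 5 (adjusted p = 0.0278) and without replicate 5 alone (adjusted p = 0.023). Of 35 nuclear genes of oxidative phosphorylation 0 were called by edgeR. In glycolysis 2 of 20 rose, beside 4.92% of all genes higher. They were Hk1, a hexokinase (1.34-fold, edgeR adjusted p = 0.014), and Eno1, an enolase (1.56-fold, edgeR adjusted p = 0.00454). Among 29 Hox genes, which keep a positional code along the cord, 3 rose and 2 fell. Hoxd3 fell 1.57-fold (edgeR adjusted p = 0.000421).

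The largest rises among named genes were in genes of low level. Slc30a2, a zinc exporter, was at 0.196, 0.275 and 0.36 CPM (lowest, median, highest) at 1.5 months and at 1.77, 1.6, 0.788, 0.975 and 0.381 CPM at 6 months (3.99-fold, edgeR adjusted p = 0.0011). Inmt, an indolethylamine methyltransferase, was 0.64 ± 0.201 CPM (SD, n = 6) and 2.39 ± 0.99 (SD, n = 5; 3.77-fold, edgeR adjusted p = 0.000154). Lrrc17, a secreted leucine-rich repeat protein, had much higher levels, 35.7 to 155 CPM at 1.5 months and 266, 305, 194, 241 and 211 CPM at 6 months (3.1-fold, edgeR adjusted p = 0.0123). Its older libraries all lay above the younger ones. Bdkrb2, a bradykinin receptor, rose 2.82-fold (edgeR adjusted p = 0.00125), Igfbp6, which binds insulin-like growth factors, 2.56-fold (edgeR adjusted p = 0.0126), Gipr, an incretin receptor, 2.42-fold (edgeR adjusted p = 0.000493) and Irs2, an insulin receptor substrate, 2.35-fold (edgeR adjusted p = 0.00295). Rab7b, a late endosomal GTPase, was among the largest falls, from 13.1 to 16.2 CPM at 1.5 months to 6.16, 6.55, 5.83, 6.76 and 9.45 CPM at 6 months (2.03-fold, edgeR adjusted p = 1.33e-05).

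The same ages could be compared in separate libraries of CHMP2Bintron5 cord, where 519 genes were called higher and 440 lower (2.59% and 2.2%, or 4.79% together). Of the control calls 348 were called in the same direction there, 16.9% of the control calls and 36.3% of the CHMP2Bintron5 calls, and 7 in the opposite one. The sign was shared by 89.6% of control calls and by 71.6% of all genes. The slope of expression on GC content ran from -0.164 to 0.426 in CHMP2Bintron5 libraries of 1.5 months. In those of 6 months it ran from 0.213 to 0.419. The part of base composition in the shared sign was not tested. In CHMP2Bintron5 cord Mal had a log2 fold change of -1.09 (edgeR adjusted p = 5.75e-06), Mog -1.06, Ugt8a -1.47, Hmgcs1 -0.83, Cyp51 -0.68 and Col3a1 -1.12, all called. Among genes that rose in control, Inmt and Slc30a2 were called there too (2.34 and 1.97). Lrrc17, Glra1 and Apoe were not (-0.11, 0.01 and 0.25, edgeR adjusted p = 0.892, 0.991 and 0.509). Their differences from control were not called (edgeR adjusted p = 0.387, 0.523 and 0.755). Of the 25 cholesterol genes 10 fell and of the 24 myelin genes 8 fell, and 0 rose in either list. The CHMP2Bintron5 count was 87 without its 6 month replicates 2 and 3, whose summed levels of dorsal root ganglion genes were 459 and 888 CPM against 82.3 and 116 CPM in the other 2.

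The age change itself differed between genotypes for 31 genes (0.155% of those tested), tested as the difference of the 2 changes. The change was higher in control for 15 (0.0749%) and lower for 16 (0.0799%). On the higher side were 8 of the genes of microglia and related immune cells named here. Genes of the lower side are not named here, and 3 of the 11 dorsal root ganglion genes tested were among those 16. In control cord Trem2 rose while in CHMP2Bintron5 cord it fell from 29.0 ± 3.67 CPM (SD, n = 5) to 18.8 ± 3.4 (SD, n = 4), a difference of the log2 changes of 1.38 (SE 0.24, edgeR adjusted p = 0.00576). Cd68 differed by 1.37 and Csf1r by 0.63 (edgeR adjusted p = 0.00576 and 0.049). Fcrls, a microglial Fc receptor-like gene, was 4.01 ± 1.41 CPM (SD, n = 6) and 3.64 ± 0.669 (SD, n = 5) in control and fell from 8.72 ± 1.63 (SD, n = 5) to 1.96 ± 0.379 (SD, n = 4) in CHMP2Bintron5 cord, a difference of 2.02 (edgeR adjusted p = 0.00576). Itgax, Clec7a, Ccl4 and Pdcd1, at low levels in control cord, differed by 3.42, 2.20, 2.93 and 3.20. With the replicate block 9 genes were called for the difference, among them 6 of these 8, and Csf1r and Clec7a were not (edgeR adjusted p = 0.106 for both). The Clec7a call also ended without 6 month CHMP2Bintron5 replicate 3 or 1.5 month CHMP2Bintron5 replicate 2 (highest adjusted p 0.0717). The Csf1r call ended when any library of the 4 groups was left out other than control replicate 2 of 6 months, control replicate 6 of 1.5 months and CHMP2Bintron5 replicate 1 of 6 months (highest adjusted p 0.162). In a fit of only the 4 groups compared 3 of the 8, Trem2, Pdcd1 and Fcrls, were called. In both genotypes C4b rose (log2 fold change 0.76 in control and 0.82 in CHMP2Bintron5), and the difference of -0.07 was not called (edgeR adjusted p = 0.986). C1qa had 0.95 in control and -0.22 in CHMP2Bintron5, and that difference of 1.17 was not called either (edgeR adjusted p = 0.203). Of the 18 complement genes 1 rose and 3 fell in CHMP2Bintron5 cord, against 6 and 0 in control. The difference was called for 0 of the 18. Without 6 month control replicates 4 and 5, or without 6 month CHMP2Bintron5 replicates 2 and 3, 0 genes were called for this difference by edgeR, with 1206 and 1336 genes at an unadjusted p under 0.05.

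**Figure D4:**
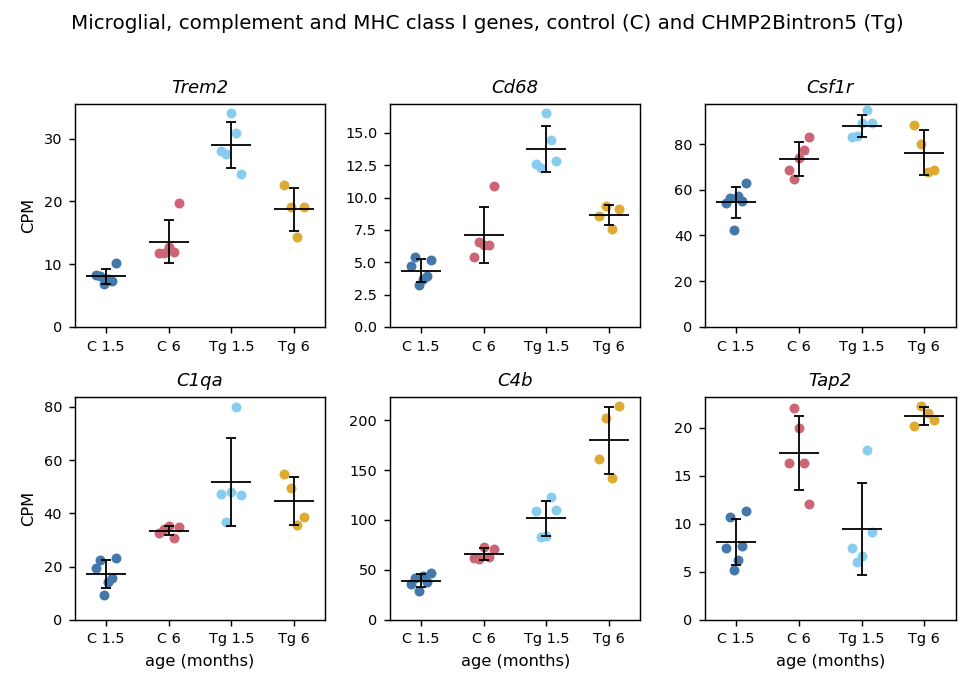
CPM of 6 immune genes in each library (points) with mean (bar) and SD (whiskers) for control (C) and CHMP2Bintron5 (Tg) cord at 1.5 and 6 months. Trem2, Cd68 and Csf1r are higher at 6 months in control, and their CHMP2Bintron5 means are lower at 6 than at 1.5 months. C4b and Tap2 are higher at 6 months in both genotypes. C1qa has a log2 fold change of 0.95 in control and -0.22 in CHMP2Bintron5 cord.

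Control cord of 10-12 months shares no library with the 1.5 month group, but shares the 6 month libraries with the comparison above. Against 6 months 0 genes were called by edgeR, with 954 genes (4.77%) at an unadjusted p under 0.05 and 7 called by DESeq2. The log2 change from 6 to 10-12 months was -0.09 for Mal, 0.01 for Mog, -0.23 for Hmgcs1, -0.06 for Cyp51, -0.64 for Col3a1 and -0.09 for Trem2. Beside these stand the changes from 1.5 to 6 months given above. The median absolute log2 change over all genes was 0.104 for the later interval and 0.184 for the earlier one.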

How the data were processed

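Spinal cord RNA was sequenced from poly(A)-selected, strand-marked libraries made from 500 ng of total RNA, per the labels' protocols. The deposited values are raw counts per gene, which the authors made with TopHat2 2.0.14, Bowtie2 2.1.0 and HTSeq 0.6.1 on mm10, per the submitters' processing notes. The sources used here do not give the strand setting, annotation release or read filters, so antisense and near-identical genes are uncertain.

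Counts were scaled by TMM and filtered with filterByExpr (minimum count 10, total 15). One edgeR 4.0.16 quasi-likelihood model in R 4.3.3 held all 6 groups of 32 libraries, with Benjamini-Hochberg adjustment over 20015 genes and calls at adjusted p under 0.05. GC and length were corrected, as an alternative, by per-library spline offsets. Alternatives were DESeq2 1.42.0, other scalings and filters, only the groups compared, leaving out libraries and a replicate block. No 2 libraries were identical. Deviations of same-numbered control libraries of the 2 ages had correlations of 0.107, 0.193, 0.104, 0.115 and 0.164. The replicate block was therefore run as an alternative, and the main model held no replicate term. The 25 pairs with unlike numbers ran from -0.395 to 0.48, 5 of them above every same-numbered pair, so the same-numbered pairs do not stand out. Any pairing by number would rest on the data alone, since the labels give no litter or batch. On simulated counts for this comparison (20015 genes, 100 changed at each fold) 47% of genes changed 1.5-fold and 71% of those changed 2-fold were recovered. Of the calls 7.81% were false. The simulated counts were drawn independently for each gene, with no trend by GC content and no carry-over of other tissue. The 7.81% is therefore not an estimate of the false share among calls in the real libraries.

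The rule for naming genes took the 15 largest rises and the 15 largest falls among called genes whose groups did not overlap and whose higher mean reached 1 CPM, and up to 5 called members of each list (up to 2 where none was called). Members named without a call were chosen after their values were seen, and only some of those the rule gives are described. The members, lists and tests were chosen with earlier results of these data known. Promoter sequences are from RefSeq (GRCm38.p6).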

Additional observations from a re-analysis of the deposited data

Results flagged for a closer look

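In 18 of 198 groups of control libraries examined (a gene or library measure at 1 age), 1 library lay far from the others, and chance alone flags about 1 in 20 groups. At 1.5 months replicate 3 was the highest for Sqle (159 CPM, others 133 to 142), Cers2 (353, others 265 to 295), Pmp22 (3073, others 1803 to 2124) and Hoxd3 (8.87, others 6.43 to 7.31), and the lowest for H2-M3 (3.89 CPM, others 5.12 to 5.76). Replicate 4 of that age was the lowest for Cldn11 (261 CPM, others 389 to 437) and the highest for Mx2 (6.55, others 4 to 4.72). At 6 months replicate 2 was the lowest for Mal (419 CPM, others 553 to 582) and Tspan2 (164, others 204 to 215). Replicate 5 of that age was the highest for Col1a1 (66.6 CPM, others 32.9 to 38.7), Trem2 (19.8, others 11.7 to 12.8), Cd68 (10.9, others 5.44 to 6.58), Ccl4 (1.09, others 0.247 to 0.422), Itgax (2.92, others 0.347 to 1.02), Clec7a (6.6, others 1.51 to 2.63) and Rab7b (9.45, others 5.83 to 6.76). Replicate 4 had the highest Lars2 (6979 CPM, others 109 to 213) and the largest library (71 M counts, others 35.4 to 45.6 M).

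The change from 1.5 to 6 months differed between control and CHMP2Bintron5 cord, by a test of the difference itself, for Trem2 (difference of log2 changes 1.38), Csf1r (0.63), Cd68 (1.37), Ccl4 (2.93), Itgax (3.42), Clec7a (2.20), Pdcd1 (3.20) and Fcrls (2.02). Without 6 month control replicate 5 alone, only the Csf1r call among these ended. Without 6 month control replicates 4 and 5 together, 0 of the 8 were called.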

How the results depend on the processing

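Of 94 genes described, 78 were called, and 66 of these kept their call under all alternatives run (DESeq2, other scalings and filters, only the groups compared, the replicate block, the GC and length correction, and leaving out libraries). Of the others, 5 lost it when 1 library was left out, 6 without 6 month replicates 4 and 5, 3 in the fit of only the groups compared (Birc5, Glra1 and Ctss) and 2 with the GC and length correction. None of the 94 changed direction with a call. With the replicate block 1 further gene, Rbfox3, was called, and the counts of calls in control cord moved from 2058 to 2356. Among the 8 genes described for the difference between genotypes it ended the calls of Csf1r and Clec7a, and it changed no other call among the genes described.

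The count of 2058 calls in control cord became 3608 with the GC and length correction and 3698 with that correction and the replicate block. With only the groups compared it was 1398 (575 higher, 823 lower). It ran from 1147 to 2933 when 1 library was left out. The 959 calls in CHMP2Bintron5 cord became 1726 with DESeq2, 63 with only the groups compared and 87 without its 6 month replicates 2 and 3. Leaving out 1 library gave 328 to 4322, with 431 and 328 without 6 month replicates 2 and 3, 394 and 399 without 1.5 month replicates 2 and 3, and 4322 without 1.5 month replicate 4. The 31 calls for the difference between genotypes became 121 with DESeq2, 20 without the low-count filter, 9 with the replicate block, 71 with the GC and length correction and 3 with only the groups compared. They became 0 by edgeR without 6 month control replicates 4 and 5 (1206 genes at an unadjusted p under 0.05) or without 6 month CHMP2Bintron5 replicates 2 and 3 (1336 genes), and 10 to 130 when 1 library was left out. The cause of these moves was not tested. With the GC and length correction the described lists that moved by more than 1.5 times included homeostatic microglia (8 higher), collagen (1 higher, 13 lower), basement membrane (2 and 8), perineuronal net (0 and 5), axon guidance (5 and 2), synapse (5 and 6), cholesterol efflux (5 and 2), astrocyte (0 and 4), glycolysis (3 and 2) and oxidative phosphorylation (2 and 5). Without 6 month replicates 4 and 5 the interferon list had 0 higher and 3 lower and the list of immature neurons 0 and 2.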

Other observations

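Clustered protocadherin genes, which give neurons a combinatorial surface identity, were higher at 6 months in control cord. They were added as lists after the data were seen. Of 12 alpha genes 6 rose and 0 fell (median log2 fold change 0.99), of 22 beta genes 6 rose and 0 fell (0.32), and of 22 gamma genes 16 rose and 0 fell (0.79), beside 4.92% of all genes higher. Without 6 month replicates 4 and 5 the counts were 3, 4 and 10. Pcdhga2 rose from 2.1 ± 0.724 CPM (SD, n = 6) to 4.86 ± 0.695 (SD, n = 5; edgeR adjusted p = 0.000334), Pcdha12 from 1.31 ± 0.355 to 2.89 ± 0.475 (edgeR adjusted p = 0.00198) and Pcdhb9 from 4.83 ± 0.782 to 8.75 ± 1.54 (edgeR adjusted p = 0.000859). In CHMP2Bintron5 cord 0, 1 and 0 members rose. Whether that differs from control was tested gene by gene, and the difference was called for 0 of these genes by edgeR. The alpha and gamma genes share 3' exons and the beta genes are near copies, so the counting of single members is uncertain.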
